A study of Mus musculus with 6 samples.

Results

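The Reg family (regenerating proteins) consists of small secreted C-type lectins, and all 7 mouse genes named here, Reg1, Reg2, Reg3a, Reg3b, Reg3d, Reg3g and Reg4, were measured in isolated pancreatic islets. Every probe set that the platform annotation assigns to exactly 1 of these symbols was taken, which gave 7 genes of the 18193 named, and 8 probe sets of the 45037 tested. Reg3b had 2 probe sets (1416297_s_at and 1448290_at) and each other gene had 1. Cpa1, which encodes the digestive enzyme carboxypeptidase A1 of acinar cells, was set beside them as a measure of exocrine content.

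Islets came from 6 mice, 1 Affymetrix array each, with 3 wild-type mice (numbered 1 to 3) and 3 hIAPP_Tg mice (numbered 4 to 6). The transgene places human islet amyloid polypeptide under an insulin promoter (Ins2), so it acts in beta cells. FVB/N-Tg(Ins2-IAPP)RFHSoel/J stands as the strain of both genotypes, sex is not given in the labels, and both were 12 weeks old and on standard chow per the sample labels, while the design text gives a range from 10 to 12 weeks. All values are log2 RMA values as deposited, and differences are hIAPP_Tg minus wild type. The p-values measure the spread between these mice.

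Reg proteins were first described in regenerating and inflamed pancreas. Reg1 and Reg2 are products of acinar cells that are also found in stressed islets. The Reg3 proteins bind bacterial cell walls in the gut, and in pancreas they are known as acute-phase products whose transcription is switched on by cytokines of the IL-6 and IL-22 families through STAT3. Reg4 is best known from enteroendocrine and goblet cells of the gut. The glycosyltransferase EXTL3 has been proposed as a Reg receptor.

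The islet label was borne out by the hormones: Ins2 was at 15.1 in all 6 mice, and the 13 measured islet and beta cell markers were never below 10.0. Since 15.1 is the highest value deposited, Ins2 may be at the array's ceiling and cannot show whether islet content differed. Exocrine RNA was present too, and its amount varied among mice of one genotype. The mean over 27 measured acinar markers was 9.37, 10.59 and 10.88 in wild-type mice 1, 2 and 3 and 10.36, 8.34 and 9.60 in hIAPP_Tg mice 4, 5 and 6. Wild-type mouse 1 stood apart from the rest. It lay at least 1 log2 unit above every other array for 66 probe sets (0.147% of those tested), against 0 to 9 for the other mice, while wild-type mouse 2 lay at least 1 unit below all others for 74 and hIAPP_Tg mouse 5 for 42. The differences of the Reg genes highest in mouse 1 are therefore given with and without it. Those of most listed genes are given with all 6 arrays only. Control probe sets at the 3' and 5' ends of Actb, a sign of RNA integrity, differed by 1.2 to 1.3 in every mouse.

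In RefSeq's order of genes on chromosome 6 (assembly GRCm38.p6), Reg3b, Reg3d, Reg3a, Reg2 and Reg1 follow each other directly. Reg3g comes next after 1 pseudogene, and Reg4 lies on chromosome 3. The 250 bases before the RefSeq start are shown for 4 members. Reg3b, Reg2 and Reg3g were each highest in wild-type mouse 1, and Reg1 was not. Reg3a and Reg3d, whose sequences are not shown, were highest in that mouse too. Capitals mark a TATA box (TATAAA), an E-box (CACCTG), the STAT-type palindrome (TTCNNNGAA) and a hexamer found in most of these promoters (TGCCAA).
Reg3b, chr6:78370635-78370884, plus strand: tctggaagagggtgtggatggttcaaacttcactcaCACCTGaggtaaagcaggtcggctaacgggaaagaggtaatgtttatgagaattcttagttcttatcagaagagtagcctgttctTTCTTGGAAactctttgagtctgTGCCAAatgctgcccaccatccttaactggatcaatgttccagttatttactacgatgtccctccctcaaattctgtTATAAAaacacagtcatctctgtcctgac
Reg2, chr6:78404905-78405154, plus strand: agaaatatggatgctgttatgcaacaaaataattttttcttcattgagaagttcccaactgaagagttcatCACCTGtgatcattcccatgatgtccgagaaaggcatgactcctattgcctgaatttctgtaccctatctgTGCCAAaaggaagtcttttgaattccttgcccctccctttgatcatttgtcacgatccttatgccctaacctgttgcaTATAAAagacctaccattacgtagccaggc
Reg3g, chr6:78468875-78469124, minus strand: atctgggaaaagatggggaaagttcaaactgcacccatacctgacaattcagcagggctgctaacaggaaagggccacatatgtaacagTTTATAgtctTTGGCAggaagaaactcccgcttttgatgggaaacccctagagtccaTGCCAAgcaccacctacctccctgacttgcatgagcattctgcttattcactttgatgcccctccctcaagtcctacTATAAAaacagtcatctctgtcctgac
Reg1, chr6:78425733-78425982, plus strand: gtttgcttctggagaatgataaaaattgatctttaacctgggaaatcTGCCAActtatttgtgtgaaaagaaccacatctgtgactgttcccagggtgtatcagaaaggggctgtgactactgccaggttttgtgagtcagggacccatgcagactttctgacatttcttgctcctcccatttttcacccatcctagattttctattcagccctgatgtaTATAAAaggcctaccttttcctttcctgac

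Motifs were searched on both strands of windows from 250 bases before to 50 after the start, and no 2 matches overlapped. TATAAA was found in 4 of the 7 Reg windows, namely Reg1, Reg2, Reg3b and Reg3g, each with a match between 22 and 30 bases before the start, and in 13.6% of 32851 promoter windows of the same length. The 4 with a match are the members whose sequences are shown. CACCTG was found in 5 of 7 (Reg2, Reg3a, Reg3b, Reg3d and Reg4) against 20.2% of all windows. TTCNNNGAA was found in 2 of 7, Reg3b at 129 to 121 bases and Reg3d at 238 to 230 bases before the start, against 8.3%. TGCCAA, chosen after the sequences were seen, was found in 6 of 7 against 14.1%, and Reg4 lacked it. The Cpa1 window held TGCCAA but none of the other 3 motifs. Related genes share sequence by descent, so these shares describe the letters only. The closest pair of windows was Reg3b and Reg3g, with 68.1% identical columns in a global alignment, and Reg1 and Reg2 followed with 55.8%. All other pairs had 44.3 to 53.7%.

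**Figure D1:**
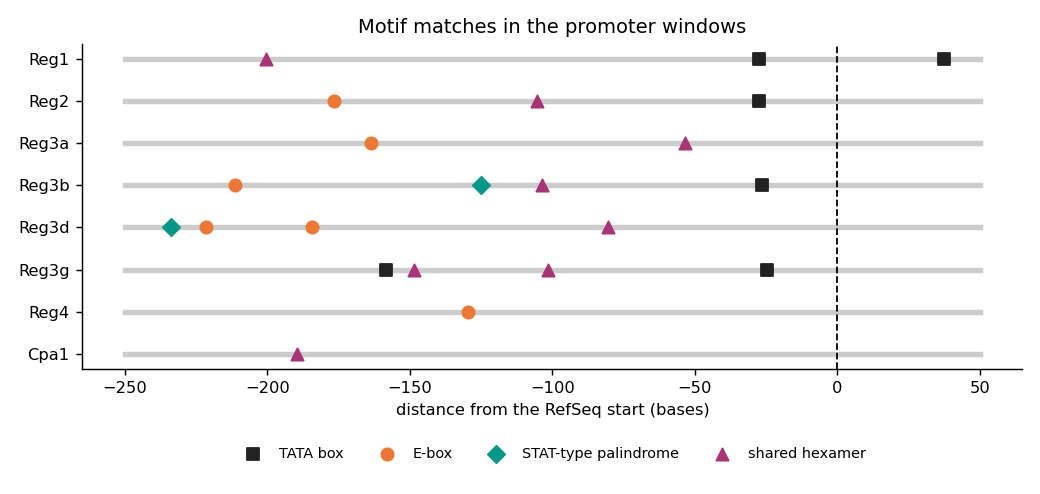
Motif matches in the promoter windows of the 7 Reg genes and Cpa1, by distance in bases from the RefSeq start (dashed line); squares are TATAAA, circles CACCTG, diamonds TTCNNNGAA and triangles TGCCAA. Matches to TATAAA sit just before the start in Reg1, Reg2, Reg3b and Reg3g, and the STAT-type palindrome appears in Reg3b and Reg3d.

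No Reg probe set passed the test between genotypes. All 8 had a lower mean in hIAPP_Tg islets, with a median difference of -0.80 against 0 over all probe sets, and 43.6% of all probe sets tested lay below 0. The highest value lay in wild-type mouse 1 for 6 of the 8, and without that mouse 4 lay above and 4 below 0 (median 0.017). The count passing limma with Benjamini-Hochberg adjustment over 45037 probe sets was 0 of 8 at an adjusted p of 0.05, where 0.0289% of all probe sets passed. At an unadjusted p under 0.05 there were 2, Reg1 and Reg3d, both lower in hIAPP_Tg islets, where 7.33% of all did, and 3.51% in that direction. The genotypes did not overlap for 1 of 8 (Reg3d), against 6.66% of all.

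**Figure D2:**
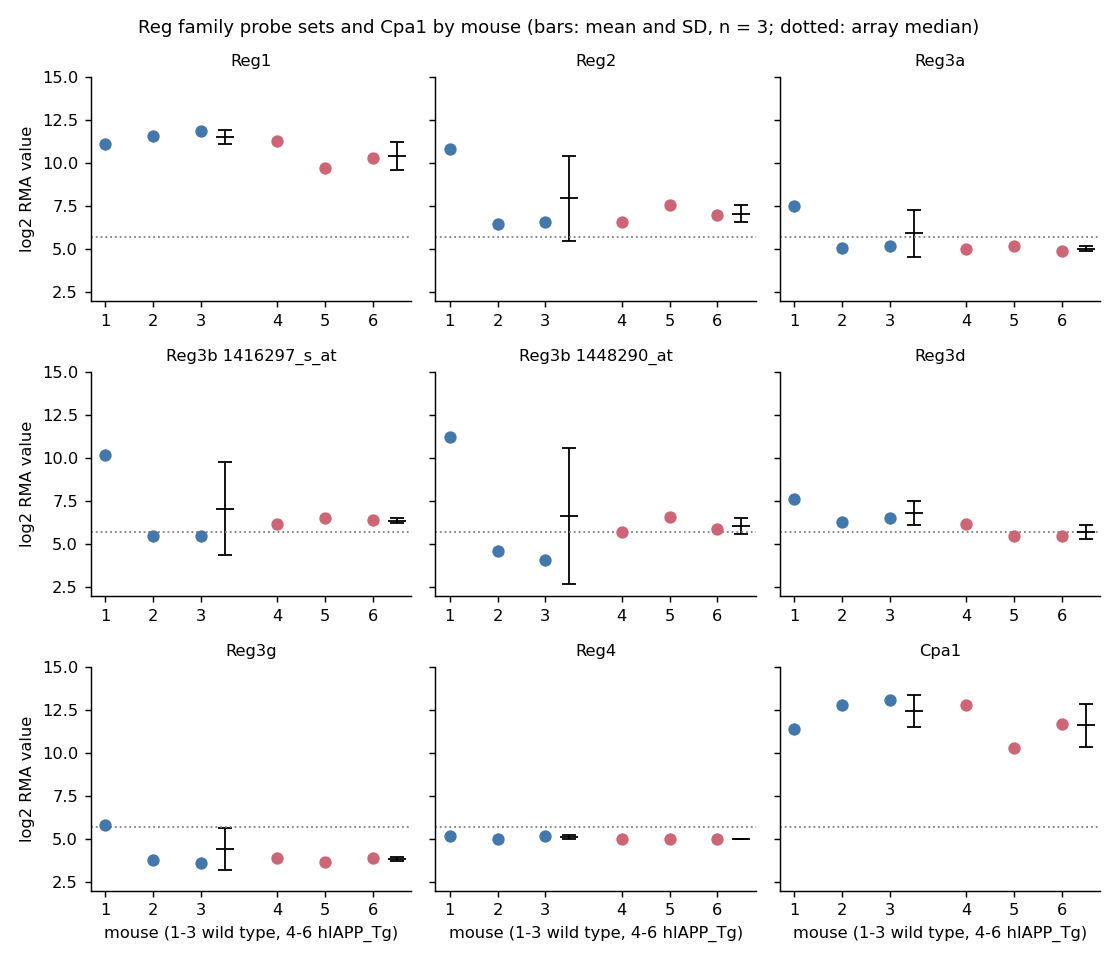
Log2 RMA value of each Reg probe set and of Cpa1 in each mouse, blue for wild type (1 to 3) and red for hIAPP_Tg (4 to 6), with mean and SD (n = 3) beside each genotype and the array median of 5.7 dotted. Wild-type mouse 1 lies above all other mice for Reg2, Reg3a, both Reg3b probe sets, Reg3d and Reg3g, but not for Reg1 or Cpa1.

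Reg1, also called pancreatic stone protein, is a major secretory product of acinar cells. Its log2 values were 11.1, 11.6 and 11.9 in wild-type mice 1 to 3 and 11.3, 9.7 and 10.3 in hIAPP_Tg mice 4 to 6. The genotypes overlapped through mouse 4, and the lowest values were those of mice 5 and 6. The means were 11.53 ± 0.40 and 10.43 ± 0.81 (SD, n = 3 each), a difference of -1.10 (SE 0.42, 95% confidence interval -2.11 to -0.085, limma adjusted p = 0.620). The exact two-sided permutation test over the 6 arrays gave p = 0.20, where the smallest p that 3 against 3 allows is 0.10.

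Reg1 ordered the mice of each genotype as the exocrine marker did. Cpa1 was at 11.4, 12.8 and 13.1 in wild-type mice 1 to 3 and at 12.8, 10.3 and 11.7 in hIAPP_Tg mice 4 to 6. The 3 values per genotype are too few for a correlation within it. Cpa1 itself differed by -0.83 (SE 0.71, limma adjusted p = 0.791). Over the 6 arrays Reg1 correlated with Cpa1 at r = 0.91 (exact permutation p = 0.0139, 0.111 after Benjamini-Hochberg adjustment over 8 relations) and rho = 0.93 (exact permutation p = 0.0167, adjusted 0.0593). Without the 2 arrays farthest from the Cpa1 median, hIAPP_Tg mouse 5 and wild-type mouse 1, r was 0.98 over the other 4. Of these, mice 2, 3 and 4 had Cpa1 at 12.8 to 13.1 and mouse 6 at 11.7, so this r rests largely on mouse 6. With Cpa1 as a covariate the genotype difference of Reg1 was -0.63 (limma adjusted p = 0.661), and with the acinar mean as a covariate it was -0.54. Subtracting Cpa1 from Reg1 on each array left a difference of -0.27 (exact permutation p = 0.50). In whole islets, fewer acinar cells and less RNA per acinar cell cannot be told apart.

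**Figure D3:**
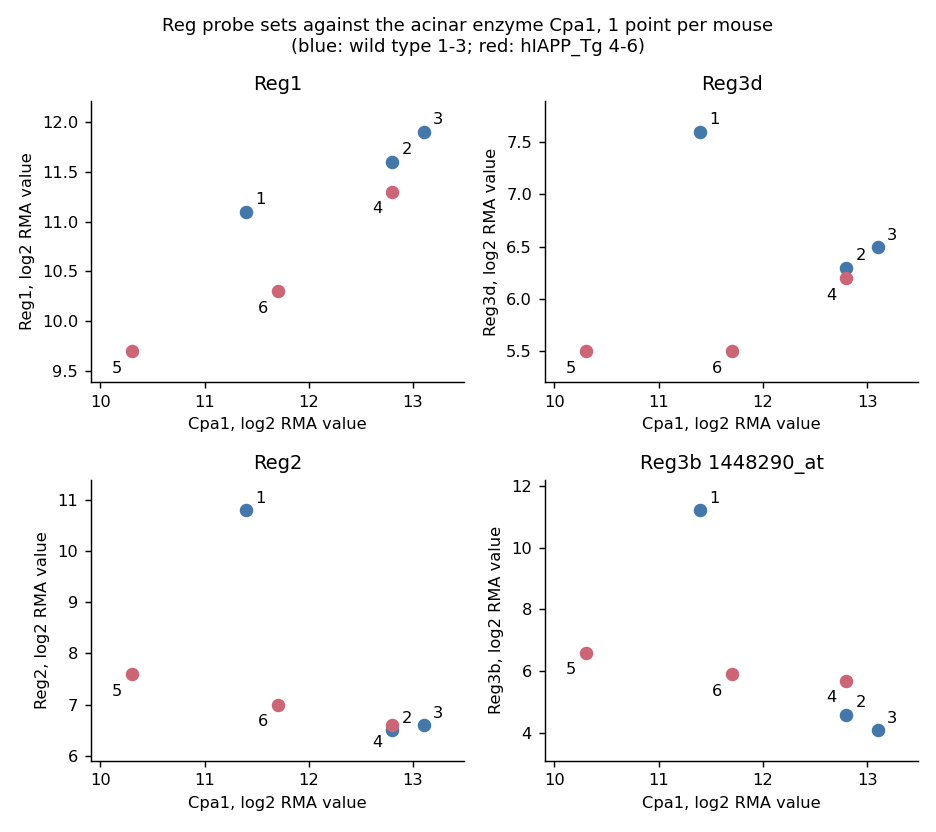
Log2 RMA values of Reg1, Reg3d, Reg2 and Reg3b (1448290_at) against those of Cpa1, 1 point per mouse with its number, blue for wild type and red for hIAPP_Tg. Reg1 is highest in wild-type mouse 3, where Cpa1 is highest, and lowest in mouse 5, where Cpa1 is lowest, whereas Reg2 and Reg3b are highest in wild-type mouse 1, which has the lowest Cpa1 of the wild-type mice.

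The acinar markers as a list had the same direction. Of 27 measured members of 35 listed, 25 lay below 0, 1 above and 1 at 0, with a median of -0.97, and 0 passed limma over all probe sets or at an unadjusted p under 0.05. Without hIAPP_Tg mouse 5, which had the lowest acinar mean, the median was -0.27, and with it left out Cpa1 differed by -0.18 and Reg1 by -0.73. Without wild-type mouse 1 the acinar median was -1.53 and Cpa1 differed by -1.35. The background over the brightest probe set of each of 18193 genes was 0.044% at the adjusted and 8.48% at the unadjusted threshold. The most negative were the chymotrypsin gene Ctrc and the ribonuclease gene Rnase1 (-1.33 each), and the acinar transcription factor gene Bhlha15 differed by 0.13. No acinar marker had its genotypes apart, against 6.66% of all probe sets tested. None was highest in wild-type mouse 1, against 10.7% of all named genes. The lowest, Prss3, was near the floor of the array, at 3.8 to 4.1.

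Reg2, the second Reg protein of mouse islets and acini, had a different pattern. It was at 10.8, 6.5 and 6.6 in wild-type mice 1 to 3 and at 6.6, 7.6 and 7.0 in hIAPP_Tg mice 4 to 6. Wild-type mouse 1 exceeded the next highest array by 3.2 on the log2 scale, or 9.19-fold, while the other 5 mice lay within 6.5 to 7.6 and overlapped. The difference of means was -0.90 (SE 1.16, 95% confidence interval -3.70 to 1.90, limma adjusted p = 0.862). Without wild-type mouse 1 it was 0.52 (limma adjusted p = 0.661), so its sign turned.

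Reg3b, the pancreatitis-associated protein, carried the widest swing. On probe set 1448290_at it was at 11.2, 4.6 and 4.1 in wild-type mice 1 to 3 and at 5.7, 6.6 and 5.9 in hIAPP_Tg mice 4 to 6. Wild-type mouse 1 was 4.6 above the next array, a 24.3-fold gap, and wild-type mice 2 and 3 were below every hIAPP_Tg mouse. The SD of this probe set over the 6 arrays, 2.54, ranked 1 among all 45037. The second probe set, 1416297_s_at, whose suffix marks probes that can match several transcripts, was at 10.2, 5.5 and 5.5 in wild-type and at 6.2, 6.5 and 6.4 in hIAPP_Tg mice. It showed the same order of groups, with mouse 1 far above and mice 2 and 3 lowest.

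With all arrays the Reg3b difference was -0.57 (SE 1.84, limma adjusted p = 0.927) on 1448290_at and -0.70 (SE 1.25, limma adjusted p = 0.908) on 1416297_s_at. Without wild-type mouse 1 the signs turned, to 1.72 (SE 0.33, 3.29-fold, limma adjusted p = 0.431) and 0.87 (SE 0.10, 1.82-fold, limma adjusted p = 0.415). Wild-type mice 2 and 3 lay under the array median of 5.7 on both probe sets, where a signal above background is not established. On 1448290_at hIAPP_Tg mouse 4 was at 5.7 itself. If mice 2 and 3 are at background, both point estimates understate the fold, apart from their sampling error. Neither passed after adjustment, and in that setting 0.00222% of all probe sets did. Both were under an unadjusted limma p of 0.05, as were 8.89% of all. Of the 8 Reg probe sets, the 2 of Reg3b were then higher in hIAPP_Tg islets with no overlap, against 6.77% of all probe sets. The 2 of Reg1 and Reg3d were then lower with no overlap, against 6.72%. The probe sets that set mouse 1 apart include both of Reg3b, and leaving out the highest wild-type value always raises the difference. The turned sign and the lack of overlap are therefore descriptions and no support for a genotype difference. The shares over all probe sets leave out the same array whatever its value, so they are not a like comparison. Both Reg3b probe sets are annotated to the same gene, so they count as 1 gene.

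**Figure D4:**
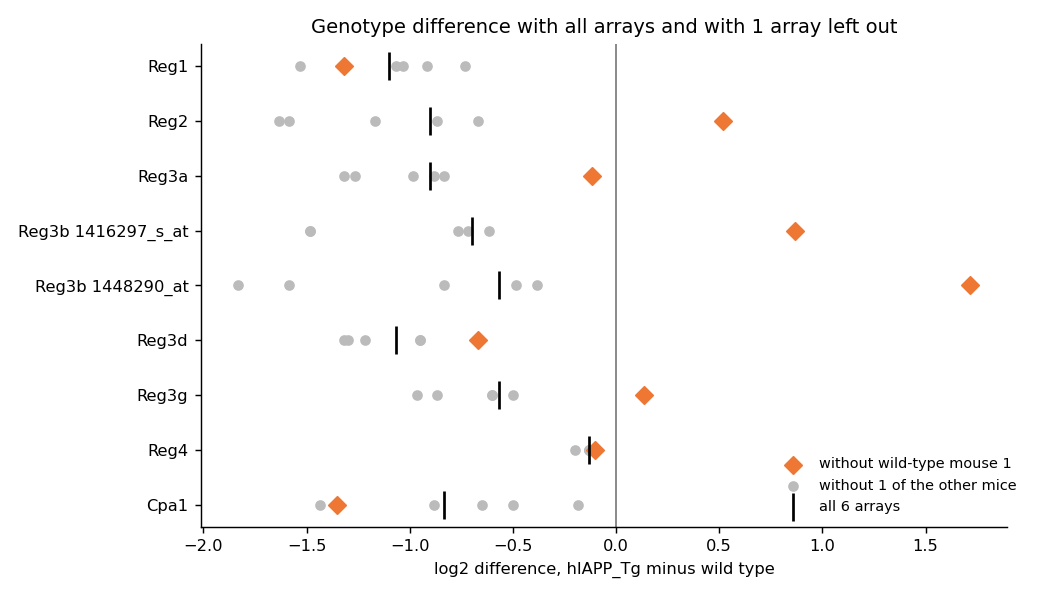
Log2 difference of hIAPP_Tg minus wild type for each Reg probe set and Cpa1 with all 6 arrays (black bar), without wild-type mouse 1 (orange diamond) and without each other mouse (grey). Leaving out wild-type mouse 1 moves Reg2, both Reg3b probe sets and Reg3g to the right of 0, while Reg1, Reg3a, Reg3d, Reg4 and Cpa1 stay to the left in every setting.

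Reg3a and Reg3g, relatives of Reg3b in the same cluster, were low in 5 of the 6 mice. Reg3a was at 7.5, 5.1 and 5.2 in wild-type mice 1 to 3 and at 5.0, 5.2 and 4.9 in hIAPP_Tg mice 4 to 6. Reg3g, a lectin that kills Gram-positive bacteria in the gut, was at 5.8, 3.8 and 3.6 in wild-type and at 3.9, 3.7 and 3.9 in hIAPP_Tg mice. In both genes only wild-type mouse 1 lay above the array median of 5.7, and the remaining values are not known to be above background. The gap from mouse 1 to the next array was 2.3 for Reg3a and 1.9 for Reg3g, each a lower bound if the other arrays are at background. The differences of means were -0.90 (SE 0.63, limma adjusted p = 0.756) for Reg3a and -0.57 (SE 0.57, limma adjusted p = 0.818) for Reg3g. Without wild-type mouse 1 they were -0.12 and 0.13.

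Reg3d, related to the hamster islet neogenesis-associated protein INGAP, was the 1 member whose genotypes did not overlap. It was at 7.6, 6.3 and 6.5 in wild-type mice 1 to 3 and at 6.2, 5.5 and 5.5 in hIAPP_Tg mice 4 to 6. Wild-type mouse 1 was again highest, by 1.1, but the other wild-type mice were also above all hIAPP_Tg mice, by as little as 0.1, the rounding step of the table. The difference was -1.07 (SE 0.38, 95% confidence interval -1.98 to -0.16, limma p = 0.0281, adjusted p = 0.607, exact permutation p = 0.10). Without wild-type mouse 1 it was -0.67 (limma adjusted p = 0.532). Among these 5 mice Reg3d and Cpa1 were both highest in mouse 3 and lower in mice 5 and 6 than in mice 2 and 4. Over all 6 arrays the correlation of Reg3d with Cpa1 was r = 0.23 (exact permutation p = 0.667, adjusted 0.810) and rho = 0.35 (exact permutation p = 0.486, adjusted 0.648). It was r = 0.99 over the 4 arrays left without the 2 farthest from the Cpa1 median, again resting largely on mouse 6.

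Reg4, the member of gut enteroendocrine cells, stayed between 5.0 and 5.2 on all arrays, under the array median of 5.7 and not known to be above background. Its difference was -0.13 (SE 0.073, limma adjusted p = 0.683). The other 7 probe sets ranked between 1 and 124 of 45037 by SD over the 6 arrays, and Reg4 ranked 28902. Cpa1 ranked 53.

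Set against Cpa1, Reg3b on 1448290_at had rho = -0.93 (exact permutation p = 0.0167, adjusted 0.0593) but r = -0.55 (exact permutation p = 0.247, adjusted 0.656). In each genotype the 3 mice had the opposite order for this probe set and for Cpa1. The other Reg3b probe set, 1416297_s_at, had rho = -0.90 (exact permutation p = 0.0222, adjusted 0.0593) and r = -0.46 (exact permutation p = 0.328, adjusted 0.656). Reg2 had rho = -0.81 (exact permutation p = 0.0639, adjusted 0.128) and r = -0.50 (exact permutation p = 0.286, adjusted 0.656). Without the 2 arrays farthest from the Cpa1 median, r over 4 arrays was -0.75 (1448290_at) and -0.77 (1416297_s_at) for Reg3b and -0.93 for Reg2. Among these 4 arrays mouse 6 alone stood apart in Cpa1, so each of these values leans on it. None of the 8 relations passed after adjustment. For Reg3a, Reg3g and Reg4, r lay between -0.29 and 0.17, with adjusted p of 0.810 to 0.867.

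Subtracting Cpa1 on each array put Reg3b (1448290_at) at -0.2, -8.2 and -9.0 in wild-type mice 1 to 3 and at -7.1, -3.7 and -5.8 in hIAPP_Tg mice 4 to 6. These are differences between probe sets and have meaning only from array to array. Mouse 1 remained the highest, the groups overlapped, and the genotype difference was 0.27 (exact permutation p = 1.0). For the 8 probe sets this difference ran from -0.27 for Reg1 to 0.70 for Reg4, with an exact permutation p of 0.50 or more and an adjusted p of 1.0 in each. Reg4 itself stayed between 5.0 and 5.2, so its 0.70 mostly restates the Cpa1 difference of -0.83 with the sign turned. Reg3a and Reg3g are not known to be above background outside wild-type mouse 1, so a like limit applies to them.

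The genes that receive or induce Reg signals did not pass the test either. Of 23 listed, 21 were measured, 12 lay above and 8 below 0 with a median of 0.067, and 0 passed limma over all probe sets. At an unadjusted p under 0.05 there were 3, all higher in hIAPP_Tg islets, against 8.48% of all named genes in either direction. Extl3, the proposed receptor, was at 7.5 to 7.6 in wild-type and 7.5 to 7.8 in hIAPP_Tg mice (difference 0.10, limma adjusted p = 0.791). Stat3, the transcription factor that relays these cytokines, was at 9.6, 9.3 and 9.3 in wild-type and 9.1, 10.1 and 9.4 in hIAPP_Tg mice, highest in mouse 5 (difference 0.13, limma adjusted p = 0.908). Socs3, its target and feedback inhibitor, was at 8.3, 8.7 and 8.2 in wild-type and 8.7, 8.8 and 9.4 in hIAPP_Tg mice. Its difference was 0.57 (SE 0.22, limma adjusted p = 0.620), and its 3 probe sets ran from 0.23 to 0.57. On 1 of the 3 probe sets wild-type mouse 1 was the lowest of all mice, and on the other two only wild-type mouse 3 was lower.

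Among the receptors, Il6ra, which binds IL-6, differed by 0.60 (SE 0.24, limma adjusted p = 0.632). Il6st, the signalling chain gp130 shared by the IL-6 family, differed by -0.40 (SE 0.25, limma adjusted p = 0.720) on its brightest probe set. It was at 10.9, 9.9 and 10.6 in wild-type and 10.2, 10.0 and 10.0 in hIAPP_Tg mice, so wild-type mouse 1 was highest by 0.3. The oncostatin M receptor gene Osmr was likewise highest in that mouse, at 7.3 against 6.3 to 7.0 in the others. The ligand gene Il11 differed by -0.23, and the IL-22 receptor gene Il22ra1 stayed at 4.5 to 4.9 in all mice, not known to be above background. On the brightest probe set of each gene, 3 of the 21 were highest in wild-type mouse 1, against 10.7% of all named genes. The count exceeding the next array by 0.5 or more was 0, against 0.583% of all named genes, so 0 is unremarkable. Over all 43 probe sets of these genes there was 1 such gap, against 1.197% of all probe sets tested. The probe set with this gap was a second one of the kinase gene Jak1. It was at 8.3, 6.2 and 7.1 in wild-type mice 1 to 3 and at 6.0, 7.2 and 6.8 in hIAPP_Tg mice 4 to 6, whereas the brighter Jak1 probe set was at 9.4 to 9.8 in all mice.

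**Figure D5:**
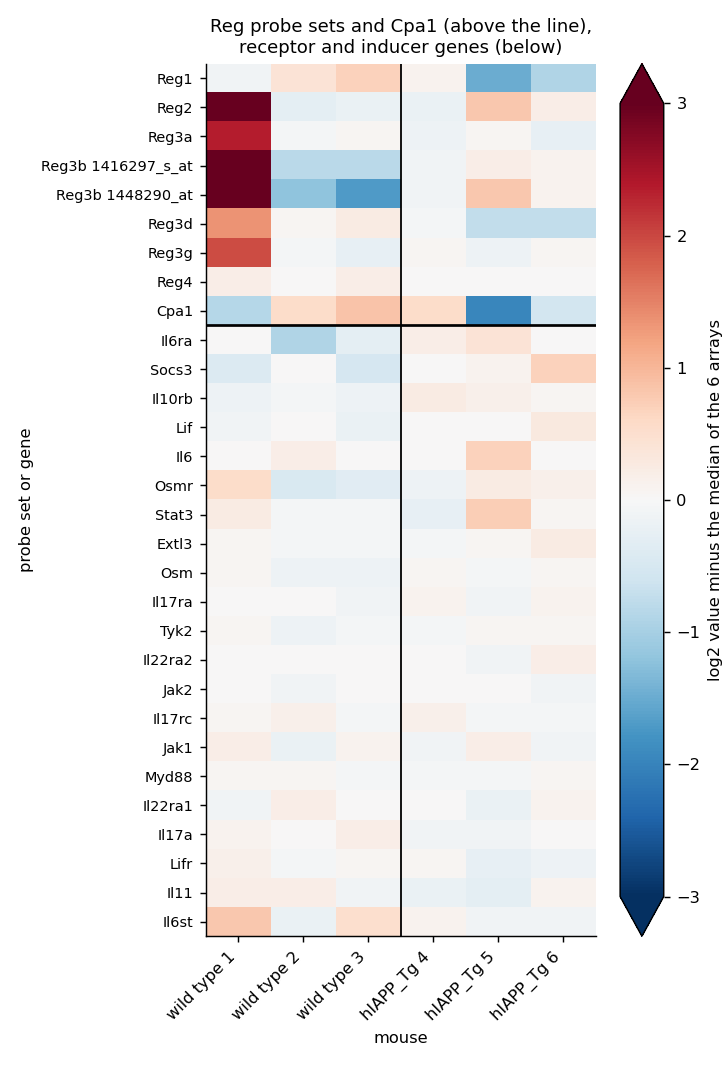
Heat map of the 8 Reg probe sets and Cpa1 (above the line) and of 21 receptor and inducer genes on their brightest probe set (below), each as log2 value minus the median of its 6 arrays, with colours capped at 3 in either direction. The dark red block of wild-type mouse 1 covers Reg2, Reg3a and Reg3b, and no gene below the line has a block of that size.

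STAT3 targets and acute-phase genes share inducers with the Reg3 genes. All 20 listed were measured, 12 lay above and 5 below 0, the median was 0.05, and 0 passed over all probe sets. At an unadjusted p under 0.05, 3 were higher and 1 lower, against 8.48% of all named genes in either direction. Cebpd, a transcription factor of the acute-phase response, was at 7.3, 7.3 and 6.5 in wild-type and 7.5, 8.7 and 8.3 in hIAPP_Tg mice (difference 1.13, SE 0.36, limma adjusted p = 0.552). The calgranulin gene S100a8 differed by 0.67 through hIAPP_Tg mouse 5 alone, at 6.3 against 4.3 to 4.6 elsewhere. The serum amyloid gene Saa2 differed by -0.23 and the fibrinogen gene Fgg by -0.13. In all, 2 of the 20 were highest in wild-type mouse 1, against 10.7% of all named genes. The count with a lead of at least 0.5 was 0, against 0.583%, so 0 is unremarkable.

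By a fixed rule, the 5 genes with the pattern most like each member were found among 779 genes with an SD of at least 0.3, by Pearson r over the 6 arrays. For Reg1 they were Rps6ka5, Dmbt1, Plut, Tff2 and Pcdh15 (r = 0.96 to 0.99). Dmbt1 and the trefoil factor Tff2 encode secreted proteins of epithelia. For the members high in wild-type mouse 1, r mostly reports that array. Dcn (decorin) was nearest to Reg3a (r = 0.99) and also near Reg2 (0.98), Col1a2 (a collagen chain) was nearest to Reg3b (0.98) and also near Reg3g (0.97), and Lum (lumican) was nearest to Reg3d (0.99). The others for Reg2 were Selp, 4632415L05Rik, Zc3h13 and Pdgfc, for Reg3a Igfbp6, Pdgfc, Abca8a and Ackr1, and for Reg3b 1810008I18Rik, Gadd45b, Crim1 and Limch1. For Reg3d they were Ptn, Scara3, Scara5 and Cp, for Reg3g Igfbp6, Dpt, Limch1 and Gkn3, and for Reg4, which hardly varied, Alb, Il6st, Crp, Tmem45a and Ppp1r3c (r = 0.88 to 0.95).

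Some markers of other cells were also highest on that array. Of 14 endothelial and stellate markers, 6 were highest in wild-type mouse 1, against 10.7% of all named genes, 3 were tied there and 5 were higher in another mouse, Acta2 and Pdgfrb among them. The lead was at least 0.5 for Col1a2, Col3a1 and Pdgfra, against 0.583% of all named genes. The list mean was 8.51 in that mouse against 8.12 to 8.27 in the other mice. Col1a2 was at 10.1 in that mouse and at 8.8 to 9.2 in the others, and Col3a1 at 11.5 against 10.2 to 10.6. The most positive members between genotypes were Acta2 (0.60) and Pdgfrb (0.43) and the most negative Col3a1 (-0.50) and Tek (-0.33). None of the 14 passed limma after adjustment (0). At an unadjusted p under 0.05, 2 were higher and 2 lower, against 8.48% of all named genes in either direction. The part of these cells in the Reg values was not tested. The lowest value among these markers was 5.2, that of Pdgfra.

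Macrophage markers separated the genotypes instead. Of 16, 15 lay above 0 with a median of 1.13. The genotypes did not overlap for 13, against 6.66% of all probe sets tested. After adjustment 3 passed limma (Mpeg1, Tyrobp and Ms4a7), against 0.044% of all named genes. The list was chosen with earlier results of these data known, so these counts are no independent evidence. The list mean was 7.15 to 7.32 in wild-type and 8.28 to 8.40 in hIAPP_Tg mice. Lyz2 differed by 2.47, Cd68 by 1.90 and Fcer1g by -0.033. The list mean of wild-type mouse 1, 7.32, stood beside 7.29 and 7.15 in the other wild-type mice and lay below every hIAPP_Tg mouse. Without wild-type mouse 1, Reg3b and the macrophage list were both higher in hIAPP_Tg islets, and the part of macrophages in the Reg3b difference was not tested.

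Duct markers had a median of 0 over 15 measured genes, with 0 passing limma after adjustment. At an unadjusted p under 0.05, 2 were higher and 1 lower, against 8.48% of all named genes in either direction. List means were 7.50 to 7.67 in wild-type and 7.48 to 7.65 in hIAPP_Tg mice. The immunoglobulin receptor gene Pigr differed by 0.47, Cldn4 by 0.33, Ambp by -0.33 and Tff2 by -1.0. Tff2 followed Cpa1 among the mice, like Reg1. Islet markers had a median of -0.067, with 0 of 13 passing limma after adjustment. At an unadjusted p under 0.05, 1 was higher, against the same 8.48%. The granule gene Chgb differed by 0.20 and Gcg by 0.033, the glucose transporter gene Slc2a2 by -0.37 and Nkx6-1 by -0.33. Nkx6-1 was at 11.6 in wild-type mouse 1 and at 10.6 to 11.1 in the other mice. Mouse Iapp differed by -0.067 to 0.033 over its 4 probe sets, and probes designed for mouse may miss the human transgene, which leaves the genotype labels unchecked.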

How the data were processed

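RNA of isolated islets from 6 mice was hybridised to Affymetrix mouse arrays after labelling from 150 ng of total RNA. Per the submitters' processing notes, the authors deposited log2 expression values made with RMA in the affy package (versions not given in the sources used here). They are rounded to 0.1 and run from 2.9 to 15.1. RMA makes the distribution of all arrays alike and compresses differences near the floor. Arrays have no sequencing depth, so precision rests on how many were run.

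Of 45101 probe sets, 64 array controls were left out. Gene names came from the platform annotation and a RefSeq table of GRCm38.p6, which changed 0 symbols. Tests used limma 3.58.1 in R 4.3.3 (lmFit, eBayes, two-sided, no covariate, Benjamini-Hochberg over 45037 probe sets, threshold 0.05), tried on simulated data. Exact permutation tests ran over the 6 arrays. Per gene of a list, the probe set with the highest mean stood for it. Figures were drawn with matplotlib 3.10.9.

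Named were all members, Cpa1, Extl3, Stat3, Socs3, Il22ra1, Il6st, Ins2, Iapp, up to 2 genes per direction and list, and 5 genes of like pattern per member. Osmr, Jak1, Col1a2, Prss3, Pdgfra, Mpeg1, Tyrobp and Ms4a7 were named after their values were seen. Members and lists were chosen with earlier results of these data known. Filters on dim probe sets, at the array median of 5.7 by mean or on at least 3 arrays, each passed 5 of the 8 Reg probe sets (Reg1, Reg2, both of Reg3b and Reg3d). The alternatives numbered 17, and 1 was added after seeing the data. Promoter sequences are RefSeq's, of GRCm38.p6, and all 7 members matched.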

Additional observations from a re-analysis of the deposited data

How the results depend on the processing

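The count of Reg probe sets past the threshold was 0 in all 17 planned settings, with limma adjusted p between 0.352 and 0.980 for the 8 probe sets. Without 1 array at a time the median difference ran from -1.32 to 0.017, above 0 only without wild_type replicate 1. Over the same settings the difference ran from -1.53 to -0.73 for Reg1, -1.63 to 0.52 for Reg2, -1.32 to -0.12 for Reg3a, -1.48 to 0.87 (1416297_s_at) and -1.83 to 1.72 (1448290_at) for Reg3b, -1.32 to -0.67 for Reg3d, -0.97 to 0.13 for Reg3g, -0.20 to -0.10 for Reg4 and -1.43 to -0.18 for Cpa1. After subtraction of Cpa1 the ranges were -0.55 to 0.033 for Reg1, -1.08 to 1.87 for Reg2, -0.80 to 1.23 for Reg3a, -0.98 to 2.22 and -1.33 to 3.07 for Reg3b, -0.77 to 0.68 for Reg3d and -0.47 to 1.48 for Reg3g. With genotype medians in place of means, added after seeing the data, Reg2 differed by 0.40, Reg3b by 0.90 and 1.30 and Reg3g by 0.10, and after subtraction of Cpa1 Reg2 by 1.60, Reg3a by 0.90 and Reg3d by 0.30. With array quality weights Reg3b differed by 0.098 and 0.67. With the acinar mean as a covariate Cpa1 differed by 0.17, but Cpa1 is itself part of that mean, so this value carries little information. A median of 3 does not register how far wild-type mouse 1 lies above the others, and with medians Cpa1 itself differed by -1.1. Beyond this arithmetic, the cause of these reversals was not tested. The acinar median ran from -1.60 (without hIAPP_Tg mouse 4) to -0.27 (without hIAPP_Tg mouse 5), and the receptor list's median was -0.011 with probe sets averaged. Over all probe sets, the count past the threshold was 13 as deposited, 30 with quantile normalization, 128 without moderation, 51 with a robust prior, 26 with array quality weights 4 with Cpa1 and 3 with the acinar mean as a covariate, and 1 to 4 without 1 array. No paired analysis was possible because the mice are numbered 1 to 6 across both genotypes and share no number. Signal near the floor limits what can be said of Reg3a, Reg3g and Reg4, and of Reg3b in wild-type mice 2 and 3, on which its turned difference and its rho with Cpa1 rest.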

Other observations

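The 66 probe sets at least 1 log2 unit higher in wild-type mouse 1 than in every other mouse were led by Reg genes. The 4 widest gaps were those of Reg3b, with 2 probe sets, Reg2 and Reg3a, and Reg3g tied with Chic1 at 1.9. These genes were named after their values were seen. The nuclear non-coding RNA Malat1 followed with 3 probe sets at 1.6 to 1.8, and the monooxygenase gene Fmo2 at 1.7. Next among named genes came Atrx, Rtn4 and Hdac9 at 1.4, Wnk1 at 1.3, and Tbl1x and Smg1 at 1.2. Further down, ceruloplasmin (Cp), a copper-carrying acute-phase protein, was higher on 3 probe sets by 1.1 each, as were the matrix gene Dcn and the defensin gene Defb1. Many other genes lay at 1.0 to 1.1, among them Rbm39, Kdm5a, Bptf, Chd4, Rbm5, Srsf11 and Pnisr. All of these were likewise picked after their values were seen. Among the other mice, the count of such probe sets was 9 in hIAPP_Tg mouse 5, 4 in hIAPP_Tg mouse 6 and 0 in the remaining 3.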
